A study of Mus musculus with 6 samples.

Results

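The 4 stathmin genes Stmn1, Stmn2, Stmn3 and Stmn4 were followed in olfactory epithelium of newborn mouse pups, through the 7 probe sets whose platform annotation names exactly 1 gene and names one of these 4. The table holds 45037 probe sets, of which 34945 name a single gene, for 18193 genes. Stmn1, Stmn2 and Stmn3 had 2 probe sets each and Stmn4 had 1. The family was chosen by its mutant to wildtype differences on these same 6 arrays, where Stmn2 and Stmn3 had stood among the lower genes. Such differences are therefore given as a description, with no test of the members.

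Stathmins are small phosphoproteins that bind tubulin dimers, hold them back from polymerisation and favour the shrinking of microtubule ends. Phosphorylation by kinases such as the JNK family, CDK5 and cyclin-dependent CDK1 weakens this binding. Stmn1, also called stathmin or Op18, is cytosolic and is abundant in dividing cells and neural precursors. Stmn2 (SCG10), Stmn3 (SCLIP) and Stmn4 (RB3) are neuronal, carry an amino-terminal extension that attaches them to membranes, and in growing neurites are found in the Golgi region and on vesicles; Stmn2 is a classic growth cone protein. Olfactory sensory neurons are replaced throughout life, so the epithelium holds neurons that are extending axons beside mature ones.

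The arrays came from 3 mutant and 3 wildtype pups, all aged 1 day and on a mixed C57Black6/J and 129SvJ background, with 1 array per pup. The study sought target genes of KLF7, a neuronal transcription factor with zinc fingers. Which allele the mutant pups carried and whether pups shared a litter was not given in the sources used here. Klf7 itself differed by -3.06 to -2.15 on the log2 scale over its 4 probe sets, mutant minus wildtype, and the groups did not overlap on any of them. Total deposited intensity ran from 11056397 to 14439788 on mutant arrays and from 10064207 to 13320971 on wildtype arrays. Both arrays numbered 3 stood apart from the others on the first principal component, at 49.5 (mutant) and 98.2 (wildtype) against -42.4 to -32.3 on the remaining arrays, so values without them are given where they bear on a result. All 10 usable markers of mature olfactory neurons exceeded the level below which genes were left out as dim. Of 7 markers of central nervous system neurons only 2 did. Markers of both lists had signal above 0 on every array. Levels below are log2 of the quantile-normalized intensity unless they are named as deposited intensity; they compare arrays for 1 probe set and not one probe set with another.

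Stmn2 and Stmn3 were lower on every mutant array than on any wildtype array, for both probe sets of each gene. The groups overlapped for Stmn1, and Stmn4 had a higher mean in the mutant with overlapping groups. In limma across all genes 0 of the 4 stathmin genes passed an adjusted p of 0.05, where 0.00% of the 12703 genes tested passed. At an unadjusted p under 0.05 limma held 2 of the 4, Stmn2 and Stmn3, beside 0.598% of all genes (76), and nothing is read from that count because this contrast led to the choice of the family. The groups did not overlap, with the mutant below, for 2 of the 4 genes and for 1.95% of all genes. Counted by probe set these were 4 of 7, beside 1.51% of all probe sets.

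**Figure D1:**
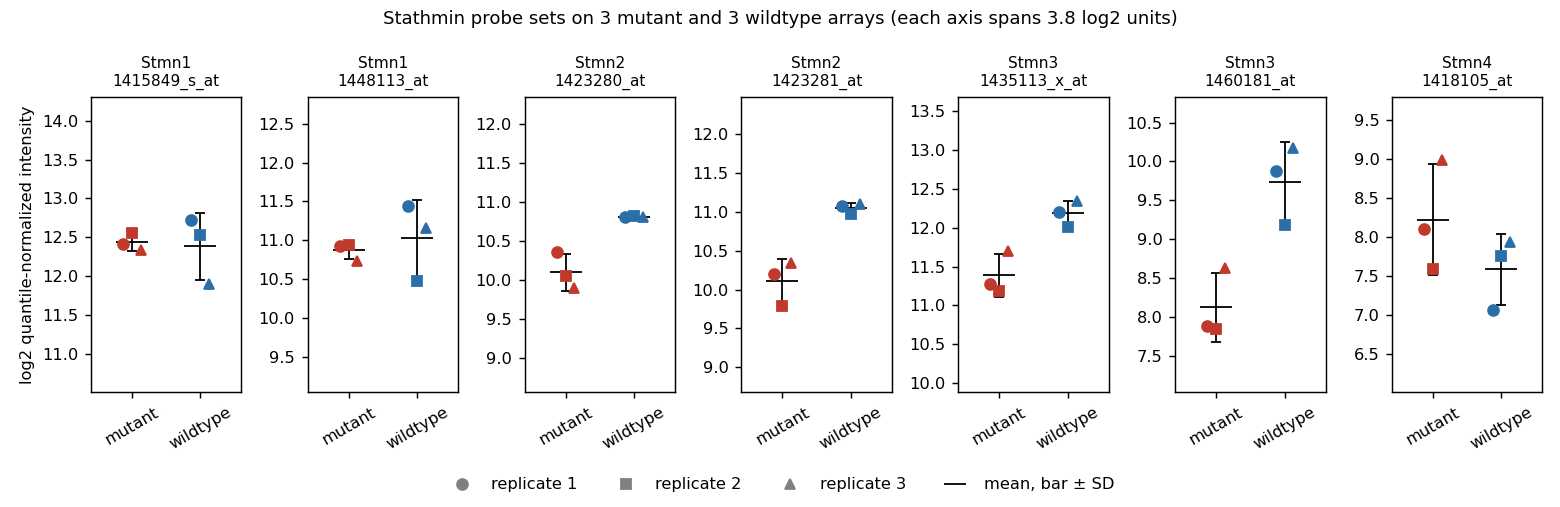
Log2 quantile-normalized intensity of the 7 stathmin probe sets (1 panel each), with mutant arrays in red on the left and wildtype arrays in blue on the right; symbols give the replicate number, the horizontal mark the mean and the bar ± SD (n = 3 each). The groups separate in all 4 panels of Stmn2 and Stmn3 and overlap in the panels of Stmn1 and Stmn4.

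Stmn2, the growth cone stathmin, was read by 1423281_at and 1423280_at. On 1423281_at it stood at 10.20, 9.79 and 10.35 on mutant arrays 1, 2 and 3, against 11.08, 10.97 and 11.10 on wildtype arrays 1, 2 and 3. Every mutant array was low, mutant array 2 most so, and the wildtype arrays lay close together. The means were 10.11 ± 0.29 in mutant and 11.05 ± 0.07 in wildtype (SD, n = 3 each), a difference of -0.94 (SE 0.226), or 1.92-fold lower. In the deposited intensities the same probe set read 1277, 1014 and 1150 in mutant, against 2394, 2114 and 1668 in wildtype, so the groups were apart before normalization as well. On 1423280_at Stmn2 stood at 10.36, 10.05 and 9.89 in mutant, against 10.81, 10.82 and 10.81 in wildtype. The difference of means there was -0.71 (SE 0.161), 1.64-fold lower, with an SD of 0.24 in mutant and 0.01 in wildtype. For this probe set the deposited intensities did overlap: mutant array 1 read 1414 and wildtype array 3 read 1374. RNA came from whole epithelium, so fewer neurons and less Stmn2 RNA per neuron cannot be told apart, for Stmn2 as for the other stathmins.

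Stmn3, the stathmin also called SCLIP, was read by 1435113_x_at and 1460181_at. On 1435113_x_at it stood at 11.28, 11.19 and 11.70 in mutant, against 12.20, 12.01 and 12.34 in wildtype. All mutant arrays lay below all wildtype arrays, with mutant array 3 the nearest to them. The means were 11.39 ± 0.27 in mutant and 12.18 ± 0.17 in wildtype (SD, n = 3 each), a difference of -0.80 (SE 0.187), or 1.74-fold lower. On 1460181_at it stood at 7.89, 7.85 and 8.64 in mutant, against 9.88, 9.18 and 10.17 in wildtype, again with no overlap. That difference was -1.62 (SE 0.353), 3.07-fold lower, and it was the largest of the 7 stathmin probe sets. Deposited intensities for it were 234, 288 and 335 in mutant, against 1015, 632 and 884 in wildtype. The suffix x_at marks a probe set in which some probes may also match other transcripts, whereas 1460181_at carries the plain suffix, and which of both sizes is nearer to the Stmn3 transcript was not tested.

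The promoter of Stmn3 is shown because the gene was low on all mutant arrays and because KLF proteins are known to bind CACCC and GC-rich boxes. Of the 4 genes 1, Stmn3, matched an entry of the RefSeq promoter table. The 250 bases before its start, from RefSeq on build GRCm38.p6 at chr2:181314501-181314750, minus strand, read 5′ to 3′ with each CACCC in capitals.
Stmn3: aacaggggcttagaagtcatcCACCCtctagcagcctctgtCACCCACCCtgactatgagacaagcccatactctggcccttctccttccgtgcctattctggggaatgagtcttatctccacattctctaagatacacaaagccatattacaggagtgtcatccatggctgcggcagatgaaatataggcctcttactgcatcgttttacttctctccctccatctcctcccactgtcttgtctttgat
CACCC was searched on both strands (GGGTG on the other) and matched 3 times, at 229 to 225, 209 to 205 and 205 to 201 bases before the start; the last pair share 1 base. At least 1 match was found in 52.0% and at least 3 in 6.92% of the 32851 promoter windows of the same length. The GC box GGGCGG, searched with CCGCCC on the other strand, had 0 matches in these 250 bases and at least 1 in 32.7% of windows. These matches describe letters in the window and show neither binding nor a cause.

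Stmn1, the stathmin of dividing and precursor cells, did not separate the groups. On 1415849_s_at it stood at 12.41, 12.56 and 12.34 in mutant, against 12.72, 12.53 and 11.90 in wildtype. Wildtype arrays 1 and 3 bracketed all mutant arrays, and the difference of means was 0.05 (SE 0.201). On 1448113_at it stood at 10.93, 10.94 and 10.74 in mutant, against 11.44, 10.48 and 11.15 in wildtype, a difference of -0.16 (SE 0.268). The sign of the Stmn1 difference thus changed with the probe set, and on 1415849_s_at it changed with the array left out, to -0.18 without wildtype array 3.

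Stmn4, the stathmin also called RB3, had its only probe set, 1418105_at, at 8.10, 7.58 and 8.98 in mutant, against 7.06, 7.75 and 7.93 in wildtype. Mutant array 3 was the highest and wildtype array 1 the lowest, and mutant array 2 lay below 2 of the wildtype arrays. The means were 8.22 ± 0.71 in mutant and 7.58 ± 0.46 in wildtype (SD, n = 3 each), a difference of 0.64 (SE 0.488), or 1.56-fold higher. The size of this difference rested on single arrays: it was 0.26 without mutant array 3, 0.37 without wildtype array 1 and 0.97 without mutant array 2. Deposited intensities were 273, 242 and 426 in mutant, against 121, 234 and 206 in wildtype, which do not overlap, whereas the normalized levels do.

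Arrays of the same replicate number passed the measure given with the processing, so differences were also taken within each number. Stmn2 on 1423281_at differed by -0.88, -1.18 and -0.76 within numbers 1, 2 and 3, and on 1423280_at by -0.45, -0.77 and -0.92. Stmn3 differed by -0.93, -0.82 and -0.64 on 1435113_x_at, and by -1.99, -1.33 and -1.53 on 1460181_at. Both genes were lower in the mutant array of every number, as were 9.46% of all genes tested. Stmn1 on 1415849_s_at differed by -0.31, 0.03 and 0.44, and Stmn4 by 1.04, -0.17 and 1.05, so neither kept 1 sign. Without both arrays numbered 3 the differences were -1.02 for Stmn2, -0.87 for Stmn3, -0.13 for Stmn1 and 0.45 for Stmn4.

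**Figure D2:**
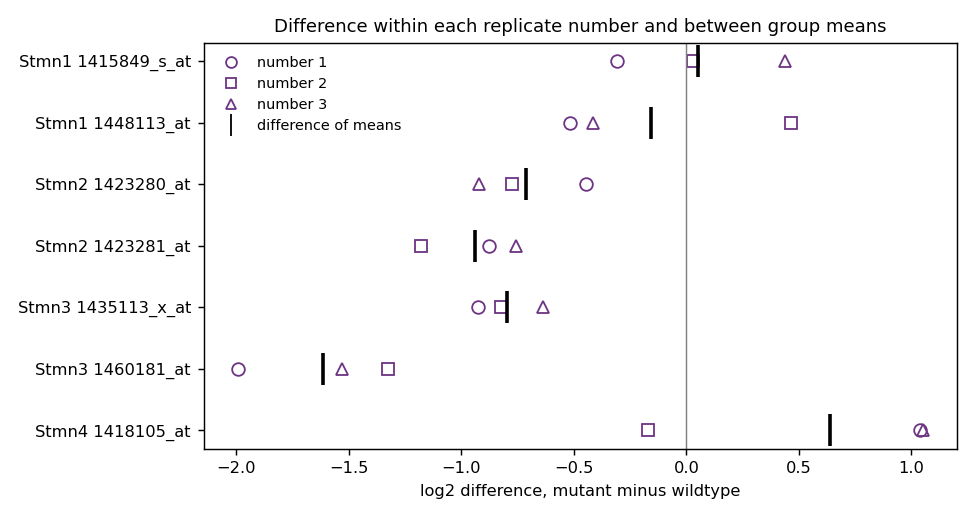
Log2 difference, mutant minus wildtype, of the 7 stathmin probe sets, within each replicate number (open symbols) and between group means (black bar). All symbols of Stmn2 and Stmn3 lie below 0, from -1.99 to -0.45, while those of Stmn1 and Stmn4 fall on both sides.

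Probe sets of the same gene followed each other across the 6 arrays to different degrees. After each was centred on its mean over the 6 arrays, those of Stmn2 differed by 0.22 on average and by at most 0.38. Those of Stmn1 differed by 0.30 on average and by at most 0.72, and those of Stmn3 by 0.41 and at most 0.68. Stmn3 on 1460181_at spanned 2.32 log2 units over the 6 arrays, against 1.15 on 1435113_x_at, with the same arrays at the high and the low end of both. Stmn4 spanned 1.92 and the Stmn1 probe sets 0.82 and 0.97.

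Ratios between 2 stathmins on the same array do not depend on how arrays are scaled, so they were taken from the deposited intensities of 1 probe set per gene and centred on their mean over the 6 arrays. The log2 ratio of Stmn2 to Stmn1 was -0.40, -0.84 and -0.21 in mutant, against 0.23, 0.22 and 1.01 in wildtype, a difference of means of -0.97. The ratio of Stmn3 to Stmn1 was -0.54, -0.68 and -0.07 in mutant, against 0.14, 0.06 and 1.09 in wildtype, a difference of -0.86. With Stmn1 read by 1415849_s_at, both ratios were lower on every mutant array, and wildtype array 3 was the highest in each. On the other Stmn1 probe set, 1448113_at, deposited intensities were 1516 on mutant array 3 and 3131 on wildtype array 1. For Stmn3 on 1435113_x_at they were 2899 and 5152 on the same arrays. The Stmn3 to Stmn1 ratio taken with 1448113_at was thus higher on that mutant array, and its groups overlapped. When, as a choice made after seeing the data, each array was left out in turn, the Stmn3 to Stmn1 difference was -0.53 without wildtype array 3 and the Stmn2 to Stmn1 difference -0.71. The ratio of Stmn3 to Stmn2 differed by 0.11 with overlapping groups and stayed within -0.16 and 0.17 on all 6 arrays; leaving out 1 array in turn gave 0.06 to 0.21. The ratio of Stmn4 to Stmn2 was higher in the mutant with no overlap, at 0.48, 0.64 and 1.27 in mutant, against -1.60, -0.47 and -0.32 in wildtype. The ratio of Stmn4 to Stmn1 differed by 0.62 and overlapped, and its size rested on single arrays: it was 0.09 without wildtype array 1, 0.25 without mutant array 3 and 1.12 without wildtype array 3.

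**Figure D3:**
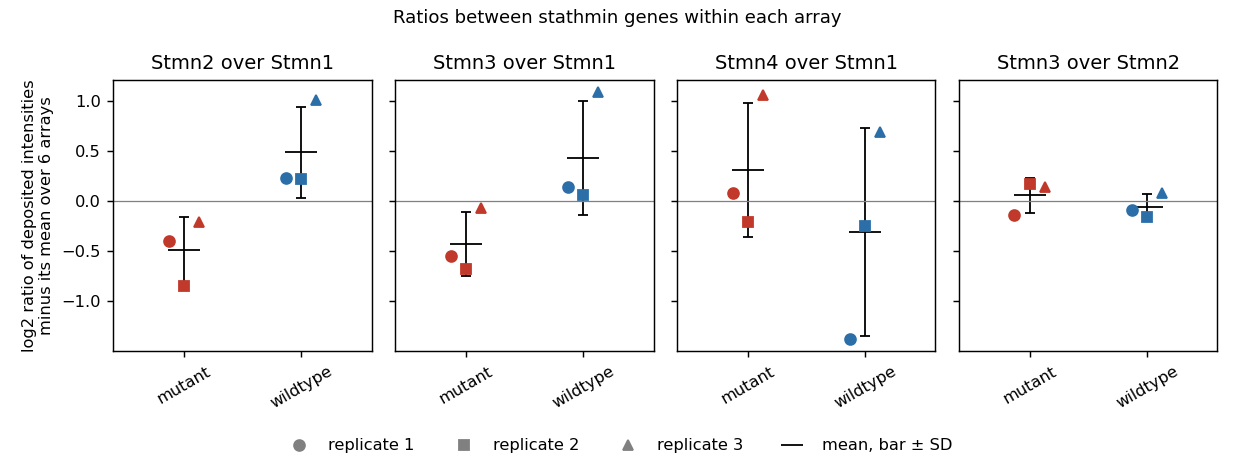
Log2 ratio of deposited intensities between 2 stathmin genes on the same array, minus its mean over the 6 arrays, for mutant (red, left) and wildtype (blue, right) arrays; marks and bars give mean ± SD (n = 3 each). Stmn2 and Stmn3 separate the groups when set against Stmn1 on 1415849_s_at, with differences of -0.97 and -0.86, and not when set against each other. Set against Stmn1 on 1448113_at, which is not drawn, Stmn3 on 1435113_x_at does not separate them.

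Genes with the profile most like each stathmin over the 6 arrays were named by the mean absolute difference between centred log2 levels, among the 12703 genes tested. The nearest to Stmn2 was Stmn3, at 0.12, followed by Cdhr1, a cadherin-related protein, and Kif3c, a kinesin motor subunit, both also at 0.12. The median distance of a gene from Stmn2 was 0.57. Stmn2 was in turn the sixth nearest gene to Stmn3, after, among others, Gpr85, an orphan receptor, at 0.08, Pbk, a mitotic kinase, at 0.09 and Dock11, a guanine nucleotide exchange factor, at 0.09. Nearest to Stmn1 were Kdm1a, a histone demethylase, at 0.03, Chordc1 at 0.04 and Cebpg, a C/EBP transcription factor, at 0.05. Nearest to Stmn4 were Shmt2, a mitochondrial serine hydroxymethyltransferase, at 0.11, Ints8, an Integrator subunit, at 0.15 and Fndc1 at 0.17. Stmn2 and Stmn4 were far apart, at 0.79. These ranks hold for 1 probe set per gene. By the same measure the other probe sets of Stmn1, Stmn2 and Stmn3 lay at 0.30, 0.22 and 0.41, farther off than the nearest genes named. A profile of 6 values that share group and array has many near neighbours, and nothing about shared control is read from it.

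Both lists of olfactory neuron markers had a negative median difference, as had Stmn2 and Stmn3, and 0 of their genes passed limma's adjusted threshold. Of 10 mature olfactory sensory neuron markers tested, 8 were lower in the mutant with a median difference of -0.89, beside -0.02 and 52.6% lower over all genes. The other 2, named after their values were seen, were the channel subunit Cngb1 at 0.73 (SE 0.689) and the adenylyl cyclase Adcy3 at 0.36 (SE 0.450). At an unadjusted p under 0.05 limma held 6 of the 10, beside 0.598% of all genes. Omp, the cytoplasmic olfactory marker protein, had a difference of -0.36 (SE 0.480), and Gnal, an alpha subunit of the odorant G protein, of -0.92 (SE 0.257). The summed normalized intensity of the mature markers was 3472 to 4341 on mutant arrays and 6093 to 7857 on wildtype arrays. In such sums, here and below, the brightest probe sets weigh most, and no share over all genes was taken for them. Of 10 immature neuron markers 9 were lower, with a median of -0.26 and sums of 15279 to 15701 in mutant and 16089 to 17385 in wildtype. Gap43, a growth cone protein, differed by -0.73 (SE 0.342) and Gng8, a G protein subunit, by -0.27 (SE 0.369). Of the immature markers limma held 0 at an unadjusted p under 0.05, and the difference between both lists was not tested. The part of either list in the stathmin differences was not tested.

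Within numbers 1, 2 and 3 the median of the mature markers was -1.21, -0.75 and -0.71, and that of the immature markers -0.21, -0.26 and -0.15. Markers of dividing cells, with which Stmn1 is usually linked, were lower in 7 of 7 with a median of -0.31, beside 52.6% lower over all genes. By number their median was -0.49, 0.01 and -0.27. Among them were Mki67 at -0.20 (SE 0.339) and Top2a, a topoisomerase of replicating cells, at -0.16 (SE 0.242). The sums of the dividing-cell markers were 4975 to 5605 in mutant and 5650 to 6687 in wildtype, while the groups overlapped for each of the 7 genes. Of the 7, 0 passed limma's adjusted threshold, with 0 at an unadjusted p under 0.05, beside 0.00% and 0.598% of all genes. Globose basal and progenitor markers split into 4 lower and 2 higher with a median of -0.08, with the neurogenic factors Neurog1 at -0.79 (SE 1.03) and Neurod1 at 0.32 (SE 0.232). Squamous epithelium markers differed by a median of 3.01, -5.29 and 2.40 within numbers 1, 2 and 3. The source of their signal and their part in the stathmin differences were not tested. In that list the keratins Krt1 and Krt10 differed by -0.71 (SE 1.27) and -1.18 (SE 0.621), and Krt13 was at 0 on at least 1 array. Central nervous system neuron markers summed to 270 to 351 in mutant and 240 to 365 in wildtype, ranges that overlap; Gad2, a GABA-synthesising enzyme, differed by -0.16 (SE 0.638) and Slc32a1, the vesicular GABA transporter, by 0.44 (SE 0.954).

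Of 5 further lists of cells in the nose, 4 had a positive median difference, beside -0.02 and 52.6% lower over all genes. In each list limma held 0 genes past its adjusted threshold, where 0.00% of all genes passed. At an unadjusted p under 0.05 it also held 0 in each, beside 0.598% of all genes, and nothing is read from these counts. Horizontal basal cell markers were higher in the mutant in 5 of 5 with a median of 0.50, among them Trp63, a transcription factor of basal cells, at 0.50 (SE 0.311) and the keratin Krt5 at 0.36 (SE 0.550). Within numbers 1, 2 and 3 the median of this list was 1.59, -1.86 and 1.36. Sustentacular and Bowman gland markers were higher in 6 of 7 with a median of 0.30, and Cyp2g1, an olfactory cytochrome P450, stood at 0.15 (SE 0.240) and Sec14l3, a lipid-binding protein, at 0.58 (SE 0.367). By number that median was -0.43, 0.68 and 0.36. Multiciliated cell markers were higher in 4 of 4 with a median of 0.24, with Foxj1, a factor for motile cilia, at 0.18 (SE 0.507) and Tekt1, a tektin of the axoneme, at 0.17 (SE 0.431). Ensheathing glia markers were higher in 4 of 5 with a median of 0.18, with the glial factor Sox10 at 0.34 (SE 0.475) and S100b at -0.03 (SE 0.417). Vomeronasal neuron markers were lower in 3 of 4 with a median of -0.25, with the channel Trpc2 at -0.21 (SE 0.770) and the G protein subunit Gnao1 at -0.42 (SE 0.395). The part of these lists in the stathmin differences was not tested.

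**Figure D4:**
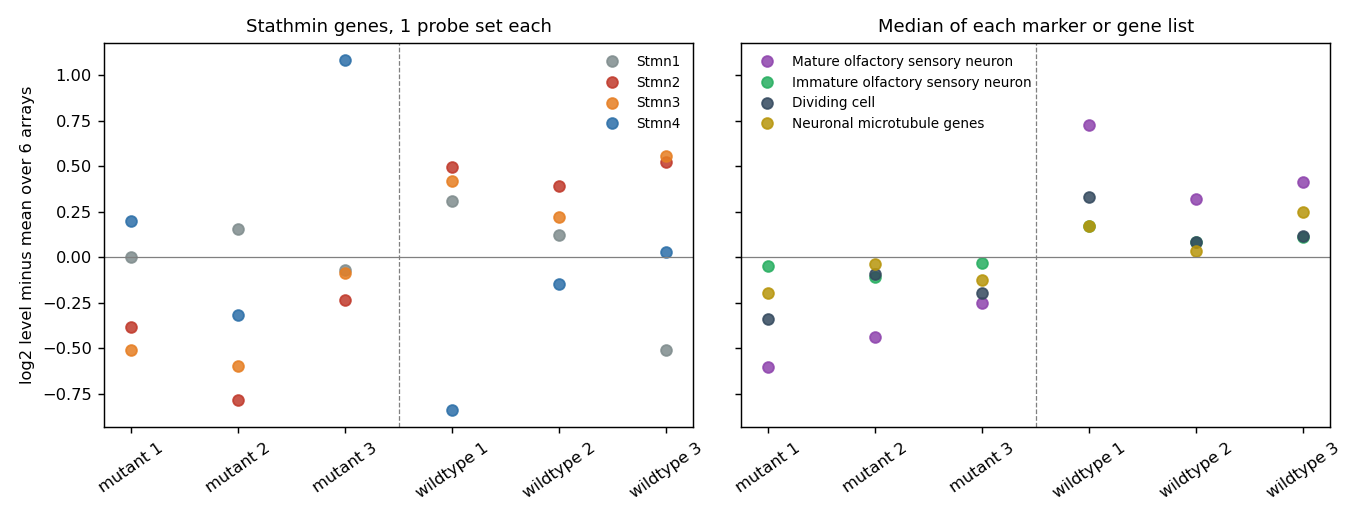
Log2 level minus its mean over the 6 arrays, for the 4 stathmin genes (left panel) and for the median of 4 gene lists (right panel), with the mutant arrays left of the dashed line and the wildtype arrays right of it. Stmn2 and Stmn3 lie below 0 on all mutant arrays and above 0 on all wildtype arrays, as do the medians of all 4 lists (mature neuron, immature neuron, dividing cell and neuronal microtubule), while Stmn1 and Stmn4 do not.

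Among other genes of neuronal microtubules most differences had the sign of Stmn2 and Stmn3 and were smaller. Of 22 genes tested 19 were lower in the mutant and 3 higher, with a median of -0.24, beside 52.6% lower over all genes. For 6 of the 22 the groups did not overlap with the mutant below, as for 1.95% of all genes, and 0 passed limma's adjusted threshold. At an unadjusted p under 0.05 limma held 2 of the 22, Kif5a and Map2, beside 0.598% of all genes. The lowest were Kif5a, a kinesin heavy chain of axonal transport, at -1.35 (SE 0.287), Crmp1, a collapsin response mediator, at -1.28 (SE 0.672), and Map2, a dendritic microtubule protein, at -0.90 (SE 0.355). The highest were Mapre3, a plus-end binding protein, at 0.31 (SE 0.537), Kif2c, a depolymerising kinesin of mitosis, at 0.04 (SE 0.801), and Katna1, a subunit of the severing enzyme katanin, at 0.04 (SE 0.351). Of the 22 genes 4, Dcx, Dpysl3, Crmp1 and Tubb3, are also in the list of immature neuron markers.

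**Figure D5:**
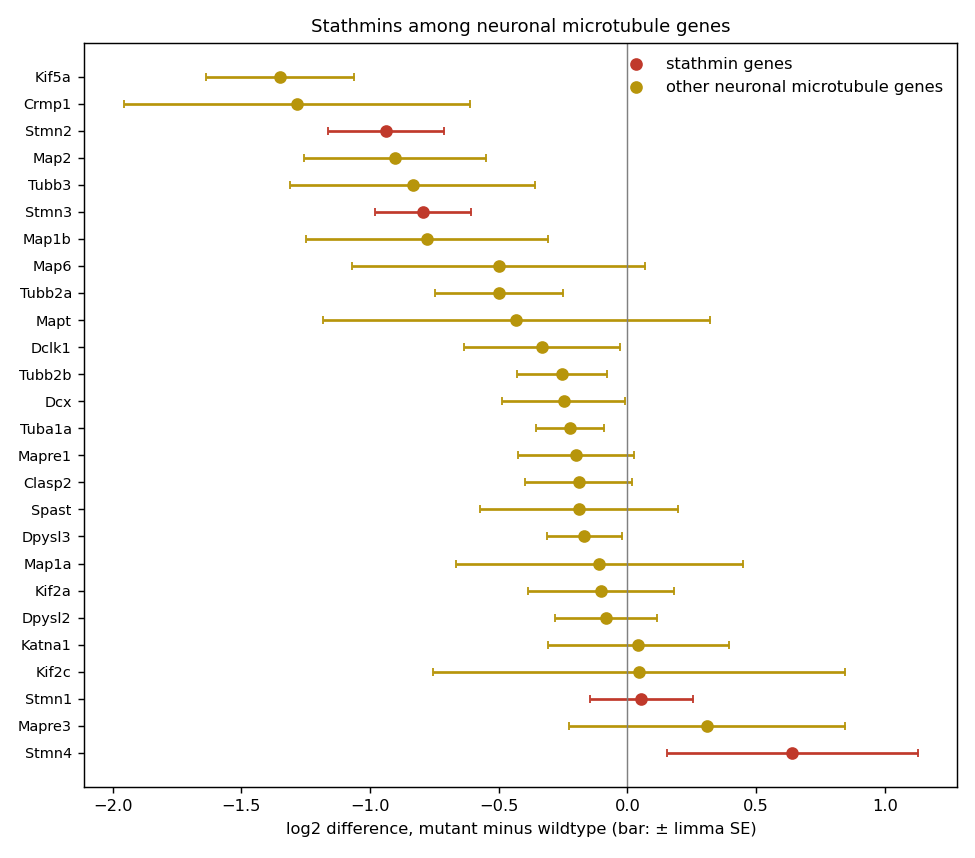
Log2 difference, mutant minus wildtype, of the 4 stathmin genes (red) and 22 other neuronal microtubule genes (ochre), sorted with the lowest at the top; bars give ± the limma SE. Stmn2 (-0.94) and Stmn3 (-0.80) lie near the low end, Stmn1 (0.05) and Stmn4 (0.64) at the high end.

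Kinases and partners known to act on stathmins were also read. Of 11 genes tested 7 were lower and 4 higher, with a median of -0.19, overlapping groups for all 11 and 0 past limma's adjusted threshold. Over all genes 52.6% were lower, and for 1.95% the groups did not overlap with the mutant below. The JNK genes Mapk8, Mapk9 and Mapk10, whose products phosphorylate stathmins in neurons, differed by 0.14 (SE 0.446), -0.20 (SE 0.293) and -0.35 (SE 0.343). Cdk5 and its activator Cdk5r1 differed by -0.19 (SE 0.557) and -0.46 (SE 0.514), and the mitotic kinase Cdk1 by -0.39 (SE 0.316). Uhmk1, a kinase known to phosphorylate stathmin, differed by -0.23 (SE 0.285), and Prkaca, the catalytic subunit of protein kinase A, by -0.04 (SE 0.229). Camk4, a calcium-dependent kinase, differed by 0.86 (SE 0.986) and the transcription factor Stat3, a stathmin binding partner, by 0.39 (SE 0.490). Cdkn1b, the cell cycle inhibitor p27, which also binds stathmin, differed by 0.47 (SE 0.202). In limma it was the 1 gene of the 11 at an unadjusted p under 0.05, beside 0.598% of all genes.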

How the data were processed

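Biotin-labelled cDNA, amplified from total RNA per the labels' protocols, was hybridised to 1 array per pup, 3 mutant and 3 wildtype; groups and replicate numbers were read from sample titles. The deposited table gives linear intensity values, 1 for each probe set on each array; the authors' probe summary, background correction and scaling are not stated in the labels. Array quartiles differed by 0.54 to 0.69 on the log2 scale, above 0.1, so arrays were quantile normalized, values under the 20th percentile (12.56) were set to it, and log2 was taken. Each gene kept its single-gene probe set of highest mean, and 5490 genes in the lowest 40% (below 5.19) were left out as dim, leaving 12703; all 7 stathmin probe sets were above that level and above the floor on every array. The group comparison used limma 3.58.1 under R 4.3.3 (two-sided, eBayes with trend), p-values were adjusted by Benjamini-Hochberg over every gene tested, and the threshold was 0.05; the script was tested on simulated data. SEs of genes come from that fit, and SEs of second probe sets from a fit over all 45037 probe sets, which called 0.00% of them.

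What a shared replicate number stands for is not said in the labels. For numbers 1, 2 and 3 the deviations of mutant and wildtype arrays from their group means correlated at 0.47, 0.18 and 0.56 across genes. All were over 0.1, and on that basis differences within each number were also taken. Unlike numbers were not compared by this measure, so it cannot show by itself that the numbers pair arrays. Among wildtype arrays, each mutant array had its highest Spearman correlation of deposited intensities with the array of its own number. These were 0.92, 0.89 and 0.88 for numbers 1, 2 and 3. The main fit, and with it every SE given, did not use the pairs. With the number as a block limma again called 0.00% of genes, with 157 at an unadjusted p under 0.05.

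The stathmins, the gene lists and the tests were chosen with earlier results of these data known. Genes named outside the family were Klf7, the 3 nearest profiles per stathmin with clone names skipped, the 3 lowest and highest microtubule genes, the tested kinases and partners, and the first 2 tested markers of lists described. Alternatives changed the normalization, floor, dim filter, probe set rule, variance model, array weights, block and arrays used. With 3 arrays per group the number of arrays limits the precision.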

Additional observations from a re-analysis of the deposited data

How the results depend on the processing

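Stmn2, Stmn3 and Stmn4 kept the sign of their difference in all 17 alternatives run, and Stmn1 in 12 of 17. Some of these settings could not change a difference of means for probe sets above the floor, and they add nothing to the tally. They were the lower floor, the changed dim filters, the fit without an intensity trend and the replicate block. For Stmn4, with 1 probe set, the mean of probe sets was another. Leaving out 1 array in turn gave -1.05 to -0.78 for Stmn2, -0.95 to -0.71 for Stmn3, 0.26 to 0.97 for Stmn4 and -0.18 to 0.22 for Stmn1, and 0 to 0 genes called over all genes by limma. With the mean of all probe sets per gene Stmn3 differed by -1.21, since its second probe set then counts equally. The replicate block cannot move a difference of means when each number holds 1 array of each group, so only its calls are informative. It changed no call and called 0 genes. With array medians set equal, Stmn2 was at -0.89 and mutant and wildtype arrays then overlapped. The number of genes at an unadjusted p under 0.05, 76 as reported with 73.7% of them lower, became 43 with array medians set equal (60.5% lower), 50 with no normalization (34 lower), 191 with no filter on dim genes, 131 with array weights, 157 with the block, 107 without wildtype array 1, 212 without wildtype array 2, 132 without wildtype array 3 and 120 without both arrays numbered 3. Of the 107 without wildtype array 1, 32 were lower, and of the 212 without wildtype array 2, 84 were lower, so the excess of lower genes turned into an excess of higher ones in both. The groups of Stmn4 did not overlap without normalization or without mutant array 2.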
